A study of Rattus norvegicus with 23 samples.

Results

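The microRNAs described here are miR-204, its partner strand miR-204* and miR-211, which lie in introns of 2 genes for melastatin-type TRP ion channels, Trpm3 and Trpm1. They were selected by name, with their levels in the 3 tissue groups in view, and are 3 of the 350 miRNA names on the array and 3 of the 199 miRNAs that entered the fit over all arrays. Small RNA was measured on 23 one-colour (Cy3) Agilent arrays, 1 per sample, from female Sprague-Dawley rats: 8 carcinomas labelled as spontaneous mammary carcinoma, 8 labelled as radiation-induced mammary carcinoma and 7 normal mammary tissues. The study asked which miRNAs are particular to radiation-induced carcinomas. The labels give no age, radiation dose or time after exposure. Each of the 16 carcinomas has a code with its own number and is taken as a separate animal. Nothing in the labels shows whether each normal tissue came from its own animal. Carcinomas are numbered in the order of their labels, so a number is only a name.

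A miRNA gene is transcribed as a hairpin, from which 1 arm is usually kept in the silencing complex and the other, written with a star in older names, is mostly degraded. Target choice rests mainly on the seed, bases 2 to 8 of the mature strand. miR-204 and miR-211 share their seed and are best known from the pigment epithelium of the eye, where miR-204 is abundant, and from melanocytes, where miR-211 is produced together with its host Trpm1. In several epithelia miR-204 is studied as a regulator of migration and adhesion genes.

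The 3 mature strands are printed with the seed in capitals because the identity of 2 of them bears on how far the array can tell them apart. Sequences are those of RefSeq (build GRCr8), and all 3 members matched an entry there, under the names rno-miR-204-5p, rno-miR-204-3p and rno-miR-211-5p.
rno-miR-204: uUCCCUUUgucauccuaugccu
rno-miR-211: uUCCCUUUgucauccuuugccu
rno-miR-204*: gCUGGGAAggcaaagggacguu

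The mature strands of miR-204 and miR-211 are both 22 bases long and are identical at 21 positions. The single difference is A17U, counted from 1 at the 5′ end of miR-204, with the base of miR-204 first. Among 693 rat mature miRNA names searched, the seed UCCCUUU was found in no other than these 2, and the seed of miR-204* was found in no other name. The hairpins show where the strands come from, with mature arms in capitals.
Mir204: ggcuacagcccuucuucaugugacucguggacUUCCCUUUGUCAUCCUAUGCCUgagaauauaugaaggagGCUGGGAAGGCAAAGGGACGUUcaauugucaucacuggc
Mir211: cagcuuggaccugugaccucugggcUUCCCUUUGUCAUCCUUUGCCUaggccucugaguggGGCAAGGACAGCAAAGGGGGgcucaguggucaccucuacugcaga

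The Mir204 hairpin lies on the plus strand at chr1:229743461-229743570 (GRCr8), inside the span of Trpm3. The Mir211 hairpin lies on the plus strand at chr1:127189328-127189433 (GRCr8), inside the span of Trpm1. The second arm of Mir211, printed in capitals in its hairpin, is not a member, and no value is given for it.

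Levels are scaled signals: the background-subtracted signal of the scanner files, averaged over the spots of a probe and multiplied so that the arrays share 1 value of the 75th percentile over the 199 probes detected on every array. A probe counted as detected on an array when over 50% of its kept spots stood well above background. The lowest detected signal of each array was found, and scaled signals under the median of these (9.81, log2 3.29) were set to that floor before taking log2. Each miRNA is represented by its brightest probe, and levels of different miRNAs are not set against each other, since probes differ in brightness. No counts underlie the values, so their precision rests on the number of arrays. The spontaneous carcinoma arrays were dimmer before scaling (75th percentile from 335 to 936) than the radiation-induced (729 to 2032) and normal ones (960 to 2494). Their lowest detected level lay between 12.02 and 29.7, above the common floor. By the barcodes in the file headers the arrays lie on 4 slides, and slide is treated as a possible batch. Slides 1 and 2 hold spontaneous carcinomas 1 to 5 and normal tissues 1 to 4. Slide 3 holds radiation-induced carcinomas 1 to 5 and normal tissues 5 and 6. Slide 4 holds the other 3 carcinomas of each kind and normal tissue 7.

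The labelled tissue was checked against epithelial miRNAs. The summed signal of 7 epithelial miRNAs (the miR-200 family, miR-203 and miR-205) ran from 17359.5 to 27013 in 7 spontaneous carcinomas, from 16629 to 22595 in 7 radiation-induced carcinomas and from 4109 to 11805 in normal tissue. It was 27.3 in spontaneous carcinoma 1 and 95.7 in radiation-induced carcinoma 3, in which all 5 members of the miR-200 family lay at the floor. The epithelial part of the label is therefore not borne out by these miRNAs in those 2 carcinomas, and the differences of the 3 members are also given without them.

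miR-204 was abundant and spread widely among carcinomas. In spontaneous carcinomas 1 to 8 the scaled signal was 4.35, 2007, 42.3, 150, 1401, 1123, 1666 and 4088. Spontaneous carcinoma 1 was not detected, carcinomas 3 and 4 were low, and the remaining 5 were high. In radiation-induced carcinomas 1 to 8 it was 3637, 2146, 875, 4785, 1050, 1071, 3380 and 4036. All 8 were detected, and they fell into a higher set of 5 and a lower set of 3 (carcinomas 3, 5 and 6). In normal tissues 1 to 7 it was 1003, 297, 1069, 247, 469, 295 and 466. Normal tissues 1 and 3 stood above the other 5, which lay close together.

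No spontaneous carcinoma had a miR-204 level within the range of the normal tissues: 5 of 8 lay above the highest normal value and 3 of 8 below the lowest. Of the radiation-induced carcinomas 6 of 8 lay above the highest normal value, 1 of them (carcinoma 6) only just, and 2 lay within the normal range. Carcinomas of both kinds overlapped. The share of all tested miRNAs with such counts is not given, so these counts are not read as particular to miR-204. On the log2 scale the mean was 8.77 ± 3.10 in spontaneous carcinomas (SD, n = 8), 11.09 ± 0.99 in radiation-induced carcinomas (SD, n = 8) and 8.88 ± 0.85 in normal tissue (SD, n = 7). The similar means of spontaneous carcinoma and normal tissue thus stand for unlike sets of values.

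**Figure D1:**
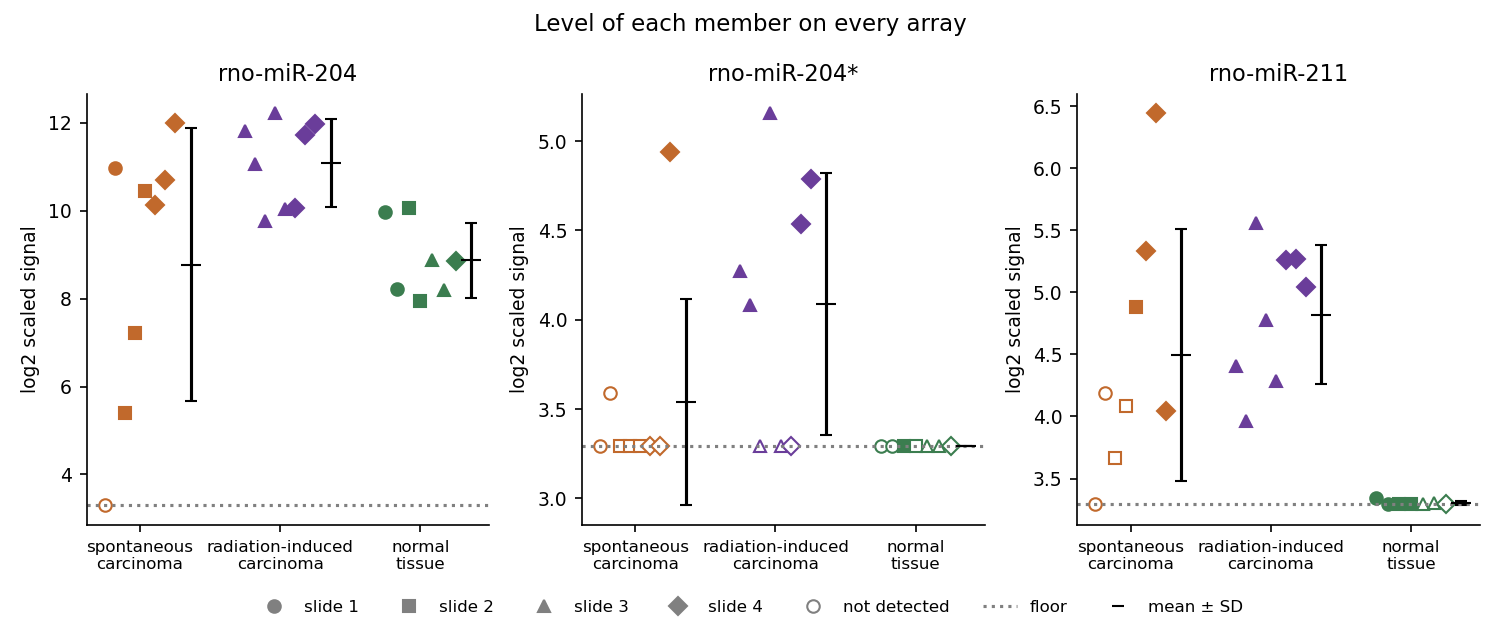
Log2 scaled signal of miR-204, miR-204* and miR-211 (vertical axes) on each of the 23 arrays, by tissue group; point shapes give the slide, open points are arrays on which the probe was not detected, the dotted line is the floor (log2 3.29), and the bar beside each group is the mean ± SD. Spontaneous carcinomas range most widely for miR-204, and the normal tissues lie at or just above the floor for miR-204* and miR-211.

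The 3 low spontaneous carcinomas were all among the 5 with a K in their code, which were run on slides 1 and 2. The 5 K-coded spontaneous carcinomas averaged 7.47 ± 3.28 (SD, n = 5, log2), and the 3 M-coded ones 10.94 ± 0.96 (SD, n = 3). All radiation-induced carcinomas have M codes. Normal tissues on slides 1 and 2 ranged from 297 to 1003 and from 247 to 1069, and those on slides 3 and 4 from 295 to 469 and at 466. The 3 low carcinomas lay below the normal tissues of their slides, of which each slide holds only 2. A part of the slide in the low values was not tested. What the 2 code letters stand for is not given in the labels, and code letter and slide cannot be told apart among the spontaneous carcinomas.

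Against spontaneous carcinomas, radiation-induced ones differed in miR-204 by log2 2.31 ± 0.94 (SE, n = 8 and 8), a ratio of 4.97. Against normal tissue the difference was 2.21 ± 0.97 (SE, n = 8 and 7), a ratio of 4.63, and all 8 radiation-induced carcinomas lay above the normal mean. Spontaneous carcinomas and normal tissue differed by -0.10 ± 0.97 (SE, n = 8 and 7). These contrasts chose the members, so the differences are given as a description and without p-values. With only the 3 M-coded spontaneous carcinomas, the difference between the carcinomas was 0.14 ± 0.60 and that of spontaneous carcinoma from normal tissue was 2.07 ± 0.61. Within slide 4, which holds all 3 groups, the corresponding differences were 0.31 ± 0.71 and 2.08 ± 1.00. The difference of radiation-induced carcinomas from normal tissue was 2.45 ± 0.73 within slide 3 and 2.39 ± 1.00 within slide 4. The higher level in radiation-induced carcinoma than in normal tissue was thus present on both slides, though slide 4 holds only 1 normal tissue. By contrast, the difference between the carcinomas was measured mainly across slides. With slide as a block, radiation-induced carcinomas differed from normal tissue by 1.44 ± 1.12 and from spontaneous carcinomas by 1.74 ± 1.20. Without the 2 carcinomas that lack the miR-200 family the 3 differences were 1.72 ± 0.77, 2.40 ± 0.77 and 0.68 ± 0.77. In bulk tissue, fewer cells with a miRNA and less of it per cell cannot be told apart.

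miR-204*, the other arm of the same hairpin, was near the limit of detection. In spontaneous carcinomas 1 to 8 the scaled signal was -1.17, 12.05, -3.00, -4.91, 9.69, 1.82, 2.75 and 30.7, and it was detected in carcinoma 8 alone. In radiation-induced carcinomas 1 to 8 it was 19.3, 16.9, 6.83, 35.7, 6.77, 1.87, 23.2 and 27.6, and it was detected in 5 of 8, which are carcinomas 1, 2, 4, 7 and 8. In normal tissue it ran from 1.499 to 6.07, detected in normal tissue 3 alone and set to the floor in all 7.

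Detection of the star strand went with the level of the main strand in radiation-induced carcinomas, while each other group had it on 1 array alone. The arrays with miR-204* detected were the 1 spontaneous carcinoma, the 5 radiation-induced carcinomas and the 1 normal tissue with the highest miR-204 of their group. In radiation-induced carcinomas miR-204 ran from 2146 to 4785 where miR-204* was detected and from 875 to 1071 where it was not. In spontaneous carcinomas miR-204 was 4088 on the array with miR-204* and at most 2007 on the others. In normal tissue it was 1069 with miR-204* and at most 1003 without. There the detected array, normal tissue 3, had less miR-204* signal (5.72) than normal tissue 1 (6.07), where it was not detected. Normal tissue 3 was also the brightest array before scaling (75th percentile 2494).

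The mean of miR-204* was 3.54 ± 0.58 in spontaneous carcinomas (SD, n = 8, log2), 4.09 ± 0.73 in radiation-induced carcinomas (SD, n = 8) and 3.29 in normal tissue, where every array lay at the floor. Radiation-induced carcinomas differed from spontaneous ones by 0.55 ± 0.27 (SE) and from normal tissue by 0.79 ± 0.28, and spontaneous carcinomas differed from normal tissue by 0.24 ± 0.28. Without the 2 carcinomas that lack the miR-200 family the 3 differences were 0.63 ± 0.28, 0.91 ± 0.28 and 0.28 ± 0.28. The floor understates differences of this size. Of the 4 probes for miR-204*, 2 were detected on no array and the third on 2 radiation-induced arrays, so every value of miR-204* rests on 1 probe of 5 spots per array.

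miR-211, the product of the Trpm1 intron, was dim in every group. In spontaneous carcinomas 1 to 8 the scaled signal was 6.66, 18.3, 12.7, 17.0, 29.6, 40.3, 87.1 and 16.5. It was detected in carcinomas 5 to 8, and carcinoma 7 was the highest of all 23 arrays. In radiation-induced carcinomas 1 to 8 it was 21.2, 15.6, 47.1, 27.5, 19.5, 38.2, 38.5 and 33.0, detected in all 8. In normal tissues 1 to 7 it was 10.2, 4.82, 7.20, 9.07, 8.09, 9.85 and 9.68. The normal tissues were detected in 4 of 7, at or near the floor throughout.

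The radiation-induced carcinomas and the normal tissues did not overlap in miR-211, and 7 of 8 spontaneous carcinomas lay above the highest normal tissue. Spontaneous carcinoma 1, at the floor, was the exception. Of the 7 normal tissues, 5 were set to the floor. The share of all tested miRNAs whose groups also stand apart is not given, so the separation is not read as particular to miR-211. Means on the log2 scale were 4.49 ± 1.02 in spontaneous carcinomas (SD, n = 8), 4.82 ± 0.56 in radiation-induced carcinomas (SD, n = 8) and 3.30 ± 0.02 in normal tissue (SD, n = 7). Radiation-induced carcinomas exceeded normal tissue by 1.52 ± 0.35 (SE, ratio 2.86) and spontaneous carcinomas exceeded it by 1.19 ± 0.35 (SE, ratio 2.28), both measured against a group at the floor. The carcinomas differed from each other by 0.33 ± 0.33 (SE), with a 95% confidence interval from -0.36 to 1.02. Without the 2 carcinomas that lack the miR-200 family, which held the lowest spontaneous and the highest radiation-induced level, the differences were 1.41 ± 0.32 and 1.36 ± 0.32 from normal tissue and 0.05 ± 0.32 between the carcinomas. In spontaneous carcinomas 2, 3 and 4 the signal lay above the floor without being detected, so their part of the difference from normal tissue rests on signals not well above background. With the floor raised to 29.7, the highest lowest-detected level of any array, the differences from normal tissue were 0.20 ± 0.18 and 0.25 ± 0.18.

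The scaling and background setting decides the sign of some of these differences. With normexp background correction the carcinomas differed by -0.54 ± 0.21 in miR-211 and by -0.55 ± 0.17 in miR-204*, against a median of -0.45 over all tested miRNAs at that setting. With no scaling between arrays the difference in miR-211 was 1.06 ± 0.29, against a median of 0.81. miR-211 lay within 1 SE of that median at both settings. miR-204 stayed higher in radiation-induced than in spontaneous carcinomas under every scaling and background setting run, at 1.61 ± 0.65 with normexp and 3.18 ± 0.94 with no scaling, and higher than in normal tissue as well. Its difference between spontaneous carcinoma and normal tissue changed sign, from -1.39 ± 0.97 with no scaling to 0.48 ± 0.67 with normexp.

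**Figure D2:**
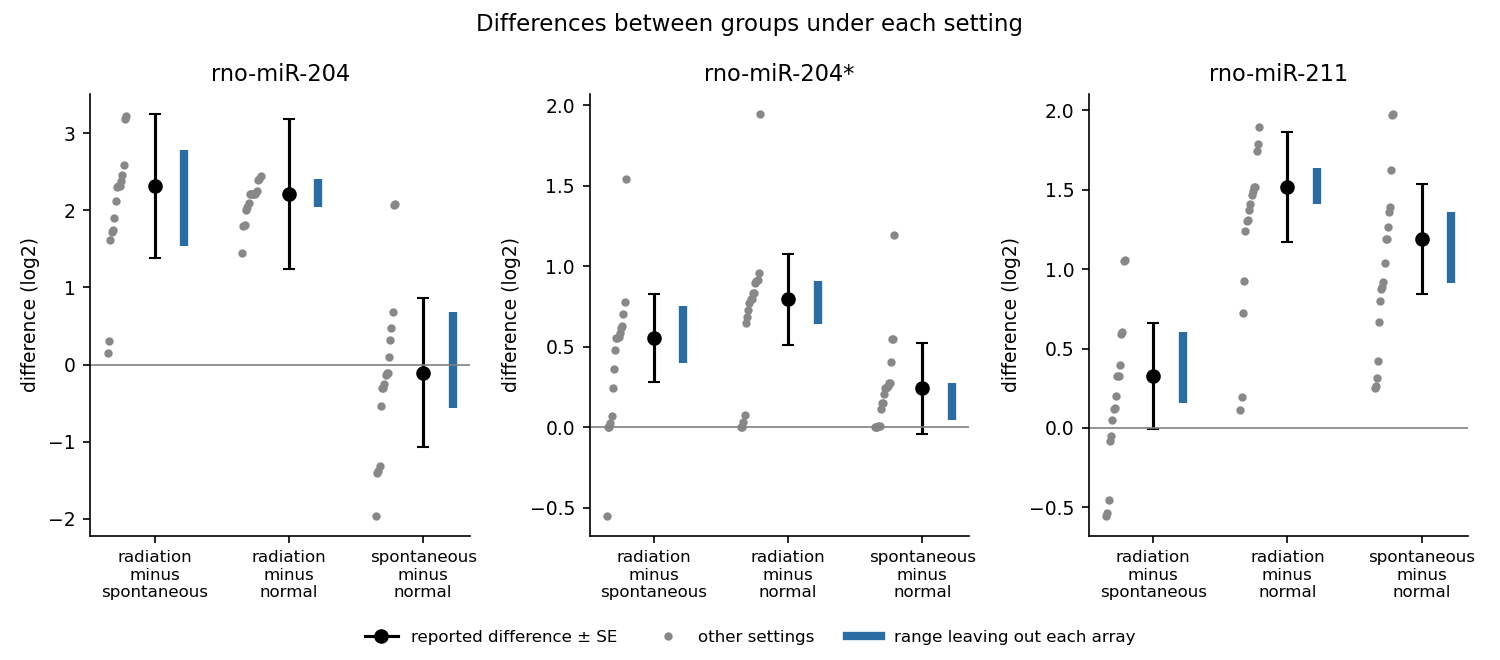
Difference in log2 scaled signal between groups (vertical axes) for each miRNA; black points are the reported differences ± SE, grey points the same differences under each other setting, and blue bars the range over fits that leave out 1 array. The miR-204 difference between radiation-induced carcinoma and normal tissue ranges from 1.44 to 2.45 over the other settings, while that between the carcinomas falls to 0.14 when only M-coded spontaneous carcinomas are used.

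In the limma fit over all 199 miRNAs, 0 of the 3 members passed a Benjamini-Hochberg threshold of 0.05 between the carcinomas, where 18.1% of all tested miRNAs did. Against normal tissue 2 of 3 passed in radiation-induced carcinomas (miR-211 and miR-204*, both higher), where 25.1% of all passed and 16.6% were higher. In spontaneous carcinomas 1 of 3 passed (miR-211, higher), where 40.7% of all passed and 26.1% were higher. The split over all 199 miRNAs turned with the scaling: in radiation-induced carcinomas against normal tissue it was 33 higher and 17 lower, but 18 and 19 with the percentile taken over all probes, 17 and 20 after quantile normalization, 4 and 22 unscaled and 43 and 10 after normexp. In spontaneous carcinomas against normal tissue it was 52 and 29, but 25 and 59, 29 and 43, 4 and 112, and 122 and 22 at the same settings. The members were chosen on these contrasts, and nothing is read from the counts. miR-204 missed the threshold against normal tissue in this fit, whose spread includes the spontaneous carcinomas, and passed when only the radiation-induced and normal arrays were fitted (2.21 ± 0.45, SE). It also passed with normexp, with its other probe and without the 2 carcinomas lacking the miR-200 family. Without spontaneous carcinoma 8, miR-204 and miR-204* passed between the carcinomas, at 2.77 ± 0.92 and 0.75 ± 0.24. miR-204* kept its pass against normal tissue in 3 of 15 fits that left out 1 array, and lost it with slide as a block (0.69 ± 0.34). miR-211 kept both of its passes in all 15 such fits of each comparison. These fits share the values by which it was chosen, so a kept pass is no separate support. miR-211 lost both with either of its other probes and with the raised floor, and its pass in spontaneous carcinomas with no scaling and in the authors' deposited table.

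Probes of the same miRNA were compared next. The 2 probes for miR-204 followed each other over the 23 arrays (Pearson r = 0.997, a description of 2 probes on shared RNA), and the spots of the probe used had a median coefficient of variation of 4.79% within an array. For miR-211 the other 2 probes were detected less often: on 4 arrays (2 spontaneous and 2 radiation-induced) and on 13 arrays (3 spontaneous, 8 radiation-induced and 2 normal). Their differences between radiation-induced carcinoma and normal tissue were 0.11 ± 0.32 and 0.92 ± 0.36, against 1.52 ± 0.35 for the probe used. Between the carcinomas they were -0.55 ± 0.31 and 0.13 ± 0.35. The size of the miR-211 difference therefore depended on the probe.

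Since miR-204 and miR-211 differ at 1 base, their signals were set side by side array by array. Spontaneous carcinoma 8 had the highest miR-204 of its group and a miR-211 signal of 16.5. Spontaneous carcinoma 7 had the highest scaled miR-211 of all arrays, though not the highest before scaling, with a miR-204 signal of 1666. Radiation-induced carcinoma 3 had the lowest miR-204 of its group and the highest miR-211. Over all 23 arrays Pearson's r of the 2 miRNAs was 0.51, and 0.47 with group means subtracted, given as a description since the groups stand apart. In the radiation-induced group, the single group with both detected on at least 6 arrays, Pearson's r was -0.18 (n = 8, exact permutation p = 0.653, adjusted p = 0.816) and Spearman's rho -0.19 (exact permutation p = 0.665, adjusted p = 0.665), two-sided. Without the 2 arrays farthest from the median miR-204 level, r was -0.11. How much of the miR-211 signal comes from miR-204 binding its probes was not tested.

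**Figure D3:**
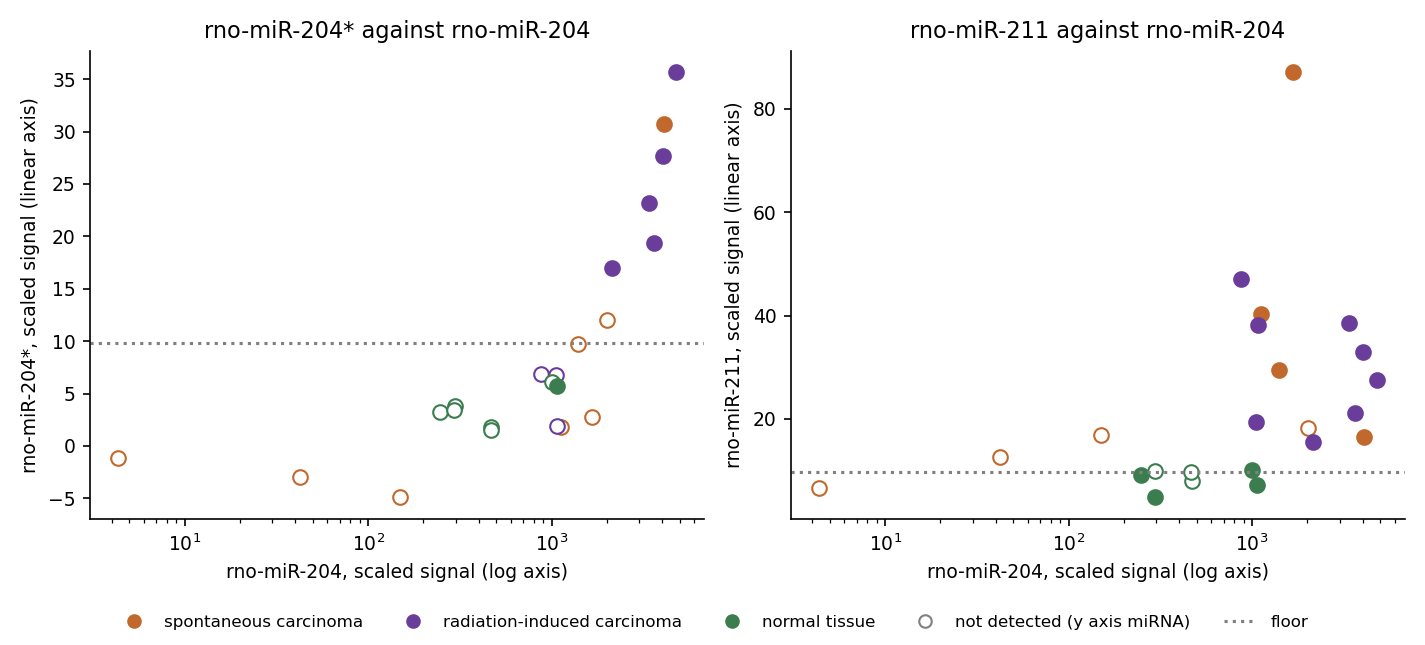
Scaled signal of miR-204* (left) and miR-211 (right) on linear vertical axes against miR-204 on a log axis, 1 point per array, coloured by tissue group; open points are arrays on which the miRNA of the vertical axis was not detected, and dotted lines mark the floor. In carcinomas miR-204* was detected only where miR-204 was 2146 or higher, and the array highest in scaled miR-211 (87.1) has a middling miR-204 level of 1666.

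That correlation was 1 of 5 computed within groups. The other 4 set a member against the brightness of its array before scaling, for miR-204 in each of the 3 groups and for miR-211 in radiation-induced carcinomas. For miR-204 Pearson's r was 0.23 in spontaneous carcinomas, 0.01 in radiation-induced carcinomas and 0.21 in normal tissue, and Spearman's rho was 0.21, -0.19 and 0.29. For miR-211 r was -0.46 and rho -0.24. Exact permutation p of r ran from 0.257 to 0.977 (n = 7 or 8, adjusted p from 0.816 to 0.977), and none of the 4 passed; the adjusted p of rho was 0.665 for all of them. Without the 2 arrays of most extreme brightness r became -0.34, -0.51 and -0.15 for miR-204 and 0.52 for miR-211, so no sign was kept. miR-204* was detected on too few arrays of any group for such a comparison.

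The miRNAs most like miR-204 over the 23 arrays were miR-143 (Pearson r = 0.80), miR-145 (0.79), miR-205 (0.77), let-7b (0.74) and let-7c (0.72). With group means subtracted the values were 0.82, 0.73, 0.76, 0.75 and 0.74. For let-7b and let-7c, spontaneous carcinoma 1 stood apart at 1113 and 1591. The other arrays lay from 5083 to 9824 and from 7832 to 13956. Spontaneous carcinoma 4, with miR-204 at 150, had 8689 and 12432. The values for let-7b and let-7c thus lean on 1 array, and r without it was not computed. miR-143 and miR-145 form a cluster abundant in smooth muscle and fibroblasts, and miR-205 is abundant in basal and myoepithelial cells of the breast. All points share the scaling of their array, and arrays of 1 group are not independent of their group, so these values are a description.

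Spontaneous carcinomas 1, 3 and 4, low in miR-204, were also low in miR-143 and miR-205. miR-143 was 1113, 963 and 917 in spontaneous carcinomas 1, 3 and 4, the lowest of all arrays, and from 3596 to 6778 in the other spontaneous carcinomas. miR-205 was not detected in spontaneous carcinoma 1 (0.30) and stood at 211 and 189 in carcinomas 3 and 4, against 690 to 1556 in the other 5. The lower miR-204 set of radiation-induced carcinomas did not share this as a set. In carcinomas 3, 5 and 6 miR-143 was 3499, 7448 and 5100, against 4005 to 13552 in the higher set. Carcinomas 5 and 6 had miR-205 of 1317 and 3776, against 971 to 2521 in the higher set. In radiation-induced carcinoma 3, which lacks the miR-200 family, miR-205 was low (80.5) while miR-204 was 875. Spontaneous carcinoma 1 and radiation-induced carcinoma 3, both without the miR-200 family, therefore differed in miR-204: the former was undetected and the latter within the range of normal tissue.

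**Figure D4:**
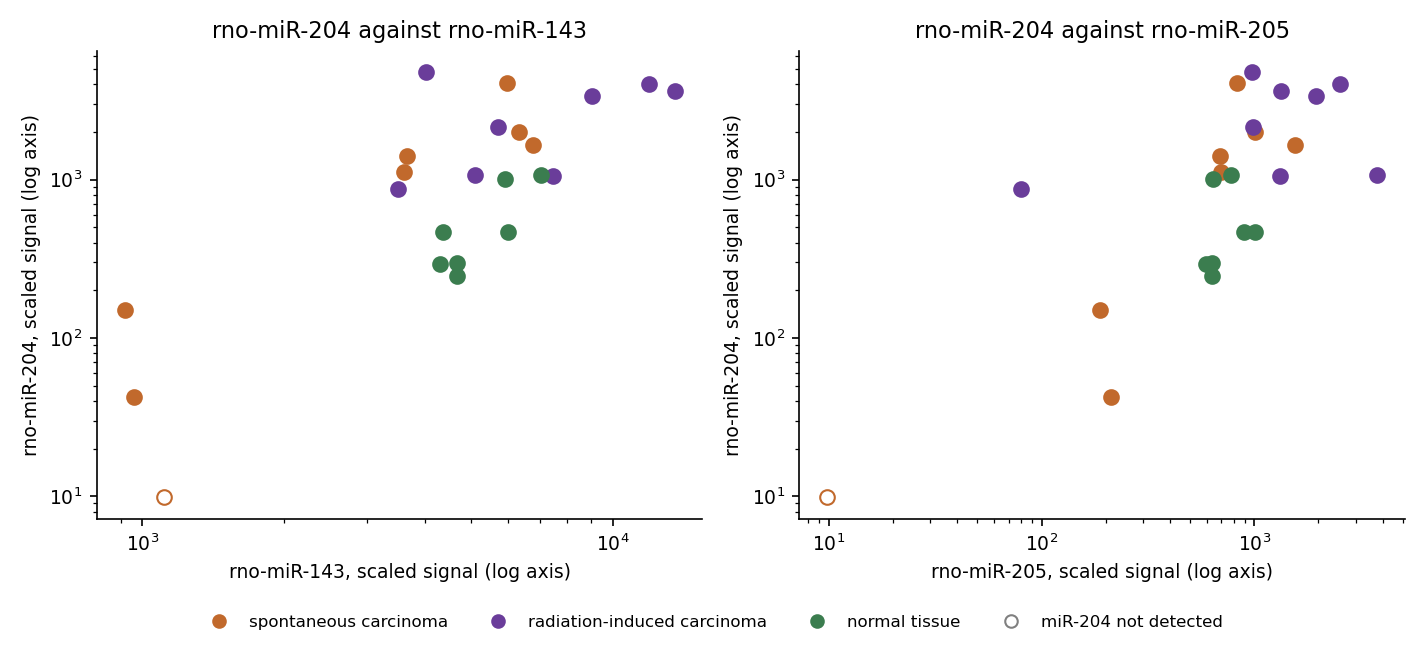
Scaled signal of miR-204 (vertical log axes) against miR-143 (left) and miR-205 (right, horizontal log axes), 1 point per array, coloured by tissue group, with signals under 9.81 drawn at that floor; the open point is spontaneous carcinoma 1, in which miR-204 was not detected. The 3 spontaneous carcinomas lowest in miR-204 are also the 3 lowest in miR-143, and radiation-induced carcinoma 3 stands apart in miR-205 at 80.5.

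Markers of other cell types were read beside miR-204. Of 6 smooth muscle and fibroblast miRNAs, 2 were higher in radiation-induced than in spontaneous carcinomas, miR-145 (log2 1.36 ± 0.37, SE, limma adjusted p = 0.0184) and miR-143 (1.30 ± 0.42, adjusted p = 0.0367), against 8.04% of all tested miRNAs, and none was lower. The median of the 6 was 0.80 against -0.02 over all tested, and miR-145 was lower with normexp (-0.10). The count between the carcinomas was 6 of 6 higher with no scaling, and 1 of 6 after quantile normalization or normexp. No miRNA of all 199 passed in limma when only the 2 carcinoma groups were fitted (58 at an unadjusted p under 0.05), which ends every call between the carcinomas named here, these 2 included. Against normal tissue 0 of 6 passed in radiation-induced carcinomas and 3 of 6 were lower in spontaneous ones, which were miR-199a-3p, miR-199a-5p and miR-214 (log2 -2.01 to -1.61), where 14.6% of all were lower. That count was 6 of 6 with no scaling, 5 of 6 with the percentile over all probes and 4 of 6 after quantile normalization or normexp. The summed signal of the 6 ran from 2804 to 9760 in spontaneous carcinomas, from 6115 to 25882 in radiation-induced carcinomas and from 9663 to 14911 in normal tissue. Spontaneous carcinomas 3 and 4 had the lowest sums (2804 and 2980), whereas spontaneous carcinoma 1, with no detected miR-204, had 7432. The part of these cells in the miR-204 differences was not tested.

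For the other marker lists the contrast between the carcinomas showed little. None of 7 epithelial, 4 adipocyte-enriched, 4 endothelial, 3 striated muscle and 6 leukocyte miRNAs tested passed between the carcinomas. Against normal tissue, where 8.54% of all tested miRNAs were lower in radiation-induced and 14.6% in spontaneous carcinomas, no epithelial miRNA of the 7 passed. Of the endothelial ones 3 of 4 were lower in both carcinoma groups (miR-126, miR-126* and miR-139-5p, though the last 2 were higher in spontaneous carcinomas with normexp). Of the adipocyte-enriched ones miR-193 was lower in both carcinoma groups, miR-365 in radiation-induced and miR-335 in spontaneous carcinomas, the last except with normexp. Striated muscle miRNAs were lower in 2 of 3 (radiation-induced) and 1 of 3 (spontaneous), and leukocyte miRNAs in 1 of 6 and 3 of 6. The striated muscle call in spontaneous carcinomas was miR-133b, whose difference changed sign over other settings (log2 -2.20 to 0.28). Summed signals in spontaneous, radiation-induced and normal samples ran from 440 to 1191, 511 to 1026 and 774 to 1059 for the adipocyte-enriched list, from 470 to 1156, 372 to 2780 and 1685 to 2513 for the endothelial list, from 17.4 to 164, 3.04 to 65.7 and 46.2 to 337 for striated muscle, and from 536 to 4409, 1469 to 7008 and 2411 to 5094 for leukocytes. miR-133a was detected on no array. The part of any of these cells in the members' differences was not tested.

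Because miR-204 and miR-211 are known from eye and nerve, a list of 11 neural and eye miRNAs was read as well. Of 5 that were tested 1 was lower in radiation-induced than in spontaneous carcinomas (miR-7a, log2 -0.74 ± 0.23, SE, limma adjusted p = 0.0275, though higher with no scaling), where 10.1% of all tested miRNAs were lower. Against normal tissue miR-128 was higher in radiation-induced carcinomas (16.6% of all were), and miR-128 and miR-7a in spontaneous ones (26.1% of all were), where both were lower with no scaling. The list's summed signal ran from 925 to 2695, from 118 to 2359 and from 308 to 992 in spontaneous, radiation-induced and normal samples. The lowest sum of each carcinoma group (925 and 118) was in its carcinoma without the miR-200 family. The list includes miR-183, miR-182 and miR-96, and the share of each member in the sum is not given. The sum is therefore not read as a neural signal. miR-129, miR-138 and miR-153 were detected on no array. The neuronal miR-124 was detected in spontaneous carcinoma 1 alone, at 295, and was at most 0.67 on every other array. miR-9, known from neural tissue, was 145 in the same carcinoma, and was otherwise detected at 51.5 and 43.2 in radiation-induced carcinomas 6 and 8. Both were named after their values were seen. The single carcinoma with miR-124 was thus the one without miR-204, miR-205 and the miR-200 family.

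The miRNAs most like miR-211 were let-7d* (r = 0.80), miR-328 (0.78), miR-207 (0.76), miR-674-3p (0.74) and let-7b* (0.74), with 0.73, 0.71, 0.79, 0.45 and 0.84 after subtraction of group means. None of them is among the 5 most like miR-204. miR-207 was detected in 5 of 8 spontaneous, 8 of 8 radiation-induced and 1 of 7 normal samples. Spontaneous carcinoma 7, highest in scaled miR-211, also had the highest scaled miR-207 (486). For miR-204*, at the floor on 16 of the arrays, likeness was weaker: miR-145 (0.53), miR-30e (0.52), miR-194 (0.51), miR-338 (0.50) and miR-192 (0.43), with 0.41, 0.35, 0.21, 0.44 and 0.03 after subtraction.

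miRNAs in introns of other host genes give a setting for the Trpm-hosted ones. Of 50 listed, 49 were on the array and 45 were tested. Between the carcinomas 2 were higher and 7 lower (9 of 45 called, against 18.1% of all, of which 8.04% were higher and 10.1% lower), with a median difference of -0.09 against -0.02 over all tested. In radiation-induced carcinomas against normal tissue 8 were higher and 3 lower (11 of 45, or 24.4%, called, against 25.1% of all, with 16.6% higher and 8.54% lower), with a median of 0.29 against 0.14. In spontaneous carcinomas against normal tissue 18 were higher and 6 lower (53.3% called, against 40.7% of all, with 26.1% higher and 14.6% lower), with a median of 0.37 against 0.23. The shares in the first 2 comparisons lay near the background, and nothing particular to the list is read from the third. The split by direction moved with the scaling: with quantile normalization the list had 1 higher and 3 lower between the carcinomas, 3 and 3 in radiation-induced carcinomas against normal tissue and 11 and 8 in spontaneous ones, and with no scaling 21 and 0, 0 and 3, and 2 and 24.

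Hosts of known function supplied the largest differences of that list. miR-483, in an intron of the growth factor gene Igf2, was lower in radiation-induced than in spontaneous carcinomas by log2 -2.65 ± 0.80 (SE, limma adjusted p = 0.0270) and was detected in no normal tissue. The 2 arms of the miR-340 hairpin in Rnf130 were lower as well, by -1.17 ± 0.26 and -1.12 ± 0.26 (adjusted p = 0.0121 for both). miR-93, from an intron of the replication helicase gene Mcm7, was higher than in normal tissue in radiation-induced carcinomas (1.28 ± 0.25, limma adjusted p = 0.000989) and in spontaneous ones (2.07 ± 0.25, adjusted p = 2.47e-06). It was lower in radiation-induced than in spontaneous carcinomas (-0.79 ± 0.24, adjusted p = 0.0275), although the sign turned with no scaling. miR-126 and miR-126*, in an intron of the endothelial gene Egfl7, and miR-139-5p of Pde2a were lower than normal in radiation-induced carcinomas by log2 -1.37 to -1.26. miR-301a, in Ska2, was higher than normal in spontaneous carcinomas (1.67 ± 0.31, limma adjusted p = 0.000278), and miR-335, in the imprinted gene Mest, was lower (-1.82 ± 0.69, adjusted p = 0.0370) except with normexp, where the difference was 0.13.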

How the data were processed

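Per the labels' protocols, RNA came from a column kit and was labelled with pCp-Cy3 by RNA ligase after dephosphorylation. The deposited scanner files hold spot intensity on a linear scale, background-subtracted within each array by Agilent Feature Extraction 9.5.1.1 and not normalized between arrays, per the file headers. The authors' deposited value table holds intensity that matched the scanner files' total gene signal (100% of values above its lowest value of 5 within 1%). Its medians per array ran from 5 to 20.7, with no centring or scaling between arrays. The headers name build rn4, so GRCr8 tables were used for sequences, their own coordinates and host names.

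Each array has 7000 miRNA spots (938 probes, 350 names) and 953 control spots, which were left out, as were spots marked as outliers. Scaling, detection and floor are described with the results. The 199 miRNAs detected on at least 7 arrays were fitted with limma 3.58.1 in R 4.3.3 (files read with data.table, version 1.17.8), 1 mean per group over all 23 arrays, with Benjamini-Hochberg adjustment within each comparison. The fit was tested on simulated data. Errors of differences are SE of this fit. Where normal tissues are not separate animals, p-values against them measure only the spread between these samples, which may be technical.

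The members and the lists were chosen with earlier results of these data known. Named miRNAs are the members, the 5 most correlated with each, and up to 4 of a list with the largest difference past the threshold; miR-124 and miR-9 were added after their values were seen. Alternatives changed the scaling, background, summary, probe, floor, slide treatment, filter and samples. Label replicate numbers are not shared between groups.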

Additional observations from a re-analysis of the deposited data

Results flagged for a closer look

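In 2 of the 8 member and group combinations with any spread, 1 array lay farther from the rest than Dixon's 95% critical value allows. Chance gives such a gap in about 1 of 20 groups of freely varying values. Both groups consist mostly of values set to the floor, for which that critical value does not hold, so neither gap is read as an outlier. miR-204* in spontaneous carcinoma 8 stood at log2 4.94, where 6 of the 8 arrays of its group lay at the floor, and the gap took 0.820 of the group's range. miR-211 in normal tissue 1 stood at log2 3.35, where the other normal tissues lay at or within 0.01 of the floor, and the gap took 0.909 of a range of 0.05.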

How the results depend on the processing

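Of 288 alternative values of the 9 member differences, 268 lay within 1 SD of the reported value, 20 moved further, and no called difference changed sign. All values of miR-204 were within 1 SD, but that SD is wide in spontaneous carcinomas, so this does not show stability. Over settings other than leaving out 1 array, radiation-induced minus spontaneous ran from 0.14 to 3.22 for miR-204. Its spontaneous minus normal difference ran from -1.96 to 2.08, with the sign differing from the reported one in 6 of 17. For miR-204*, radiation-induced minus spontaneous was -0.55 with normexp and 1.54 with a floor of 1 in unscaled signal. Radiation-induced minus normal was 0, 0 and 0.076 with its other probes, 0.033 with the raised floor and 1.95 with the floor of 1, and spontaneous minus normal was 1.19 with normexp. For miR-211, radiation-induced minus spontaneous was -0.55 with its first other probe and -0.54 with normexp. Radiation-induced minus normal was 0.11 and 0.92 with its other probes, 0.73 with normexp and 0.20 with the raised floor. Spontaneous minus normal was 0.32 with no scaling, 0.26 in the deposited table, 0.25 with the raised floor, 0.42 within slide 1, 1.98 within slide 4 and 1.97 with M-coded carcinomas only. The raised floor exceeds most miR-204* and miR-211 signals by construction, and the cause of the other shifts was not tested.

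The number of members past the threshold between the carcinomas was 3 with no scaling, 3 with normexp and 2 in the deposited table, and 0 to 2 without 1 array. With no scaling all 3 were higher in radiation-induced carcinomas, whereas with normexp miR-204 was higher and miR-204* and miR-211 were lower. Against normal tissue in radiation-induced carcinomas the number was 3 with only the 2 groups compared, after normexp, and when the carcinomas lacking miR-200 were left out. It was 1 with no scaling, in the deposited table, with slide as a block and with no filter on detection (miR-204* lost in each), 0 with the raised floor and within slides 3 and 4, and 1 to 2 without 1 array. In spontaneous carcinomas it was 0 with no scaling, in the deposited table, with the raised floor and within slides 1, 2 and 4, and 2 with normexp and with M-coded carcinomas only. Within single slides few arrays remain.

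Over all tested miRNAs the calls between the carcinomas were 21 with quantile normalization, 99 with no scaling, 104 with normexp, 99 in the deposited table, 19 with the raised floor, 7 with slide as a block, 3 within slide 4, 10 with M-coded carcinomas only, 0 in limma with only the 2 groups compared (58 at an unadjusted p under 0.05) and 23 with no filter, against 36. They ran from 20 to 47 without 1 array, with 20 without radiation-induced carcinoma 7 and 23 without carcinoma 1. Against normal tissue in radiation-induced carcinomas they were 26 with no scaling, 25 in the deposited table, 28 with the raised floor, 28 with slide as a block, 0 within slides 3 and 4 (28 and 18 at an unadjusted p under 0.05 in limma), 76 with only the 2 groups compared and 95 without the carcinomas lacking miR-200, against 50. In spontaneous carcinomas they were 144 with normexp, 28 within slide 2 and 0 within slides 1 and 4 (33 and 18 at an unadjusted p under 0.05 in limma), against 81. The split into higher and lower between the carcinomas was 16 and 20, which became 31 and 6 when the percentile was taken over all probes, 14 and 7 after quantile normalization, 99 and 0 unscaled and 11 and 93 after normexp. The median over all miRNAs in the 3 comparisons was -0.02, 0.14 and 0.23, and stood at 0.81, -0.21 and -0.98 with no scaling and at -0.45, 0.30 and 0.74 with normexp. No correlation passed under any of its 4 alternatives. The alternatives for the intron and the smooth muscle lists, and for calls over all miRNAs those on the floor, the deposited table, single slides, M codes, single arrays and 2-group fits, were chosen after seeing the data. No paired analysis was possible because the labels share no replicate numbers between groups.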
